A study of Mus musculus with 9 samples.

Results

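The genes described here encode the constitutive proteasome, and their transcript levels were followed in intestinal epithelial cells (IECs) after activation of natural killer T (NKT) cells in vivo. The set was chosen with earlier results of these data known. Its members were picked by a rule on the symbol: protein-coding genes named Psma, Psmb, Psmc or Psmd with a number, and Psme3 and Psme4. The rule left out the 3 interferon-inducible catalytic subunits Psmb8, Psmb9 and Psmb10. This rule found 38 genes among the 29288 of the count table, and 1 more gene that meets it was not analysed here. Of the 38, 37 passed the filter on low counts. The exception was Psmb11, a catalytic subunit known from cortical thymic epithelium, which had 125 counts over all 9 libraries. Psmc3ip met the rule by its letters only. It encodes a meiotic recombination factor that binds Psmc3 and is not a part of the particle, so it is given apart below.

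IECs were sorted as live EpCAM+, Ter119-, CD31-, CD45- cells from proximal small intestinal crypts of female WT C57BL/6J mice, whose age the labels did not give. The control mice received PBS intraperitoneally and were sampled at 18 h. The others received 2 µg of the NKT cell antigen α-galactosylceramide (αGalCer), which CD1d presents, and were sampled either at 18 h (named 18h-αGal) or at 72 h (named 72h-αGal). Each group held 3 mice, with 1 library from each mouse. No PBS group was labelled 72 h, so at that time an effect of αGalCer and one of the interval since injection cannot be told apart. EpCAM+ crypt cells are a mixture of stem, transit-amplifying and differentiated cells, and in such bulk RNA fewer cells of a type and less RNA per cell cannot be told apart.

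The proteasome is the protease that degrades proteins tagged with ubiquitin chains. Its 20S core is a barrel of stacked rings: outer rings of α subunits (Psma genes), whose tails close the entrance, and inner rings of β subunits (Psmb genes), of which Psmb5, Psmb6 and Psmb7 carry the chymotrypsin-like, caspase-like and trypsin-like sites. The 19S cap binds the core, captures tagged proteins, removes the ubiquitin and unfolds the chain with a ring of ATPases (Psmc genes), held by a base and lid of non-ATPase subunits (Psmd genes). Interferon-γ is known to induce the alternative catalytic subunits Psmb8, Psmb9 and Psmb10, which replace Psmb5, Psmb6 and Psmb7 in new particles to form the immunoproteasome, and the cap PA28 α/β (Psme1 and Psme2). Peptides cut by either particle feed MHC class I presentation. When proteasome activity falls short, the transcription factor encoded by Nfe2l1 is known to raise the subunit genes together through antioxidant response elements in their promoters.

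Promoter sequences were compared because the genes moved together, as described below. RefSeq promoters (GRCm38.p6, from 250 bases before to 50 after the transcription start) matched 32 of the 38 genes, and 5 motifs were searched in them on both strands, each on its own, so that matches of different motifs could share bases. A gene was counted once if any of its promoters held the motif, since some genes, Psma6, Psmc2 and Psme2 among them, had more than 1. The ETS-type motif CCGGAAG occurred for 13 of 32 genes (40.6%), against 9.93% of all 27025 genes in the RefSeq table and 18.1% of the 11654 tested genes with an entry. The antioxidant response element core TGACNNNGC occurred in 6 of 32 (18.8%), against 14% of all and 16.6% of tested genes, and the members of this set included the catalytic subunits Psmb5 and Psmb6. The interferon-type motif GAAANNGAA was found for 5 genes (15.6%, against 8.37% of tested genes), the STAT-type palindrome TTCNNNGAA for 1 (3.12%, against 8.25%) and CCAAT for 14 (43.8%, against 42.7%). Among the immunoproteasome and PA28 α/β genes, all 5 of which had an entry, the ETS-type motif and the antioxidant core were found in 0 promoters and the other 3 motifs in 1 each: the STAT-type palindrome in Psmb8, the interferon-type motif in Psme1 and CCAAT in Psmb9. These matches describe letters only. The 150 bases before the start are shown for 4 genes with the ETS-type motif, 3 of them called higher at 18 h and 1, Psme4, not called, for both catalytic subunits with the antioxidant core, and for Psmb8 with the STAT-type palindrome. Capitals mark the motif named, on either strand.
With CCGGAAG in capitals,
Psmd2 (chr16:20651502-20651651, plus strand): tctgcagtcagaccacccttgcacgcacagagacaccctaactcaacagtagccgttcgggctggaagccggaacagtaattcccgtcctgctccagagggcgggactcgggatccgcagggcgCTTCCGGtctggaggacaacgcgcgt
Psmd12 (chr11:107479378-107479527, plus strand): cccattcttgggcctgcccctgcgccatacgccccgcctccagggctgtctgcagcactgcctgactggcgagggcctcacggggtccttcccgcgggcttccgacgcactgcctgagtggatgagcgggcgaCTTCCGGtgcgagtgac
Psmc1 (chr12:100110052-100110201, plus strand): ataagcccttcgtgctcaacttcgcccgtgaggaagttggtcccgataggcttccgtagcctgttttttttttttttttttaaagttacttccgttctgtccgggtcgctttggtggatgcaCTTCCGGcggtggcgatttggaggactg
Psme4 (chr11:30771625-30771774, plus strand): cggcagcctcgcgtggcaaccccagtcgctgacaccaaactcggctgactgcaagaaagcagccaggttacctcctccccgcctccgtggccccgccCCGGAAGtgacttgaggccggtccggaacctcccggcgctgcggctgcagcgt
With TGACNNNGC in capitals,
Psmb5 (chr14:54617996-54618145, minus strand): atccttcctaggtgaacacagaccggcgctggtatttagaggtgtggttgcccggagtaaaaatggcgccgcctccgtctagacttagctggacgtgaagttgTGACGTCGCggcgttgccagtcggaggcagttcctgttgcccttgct
Psmb6 (chr11:70525207-70525356, plus strand): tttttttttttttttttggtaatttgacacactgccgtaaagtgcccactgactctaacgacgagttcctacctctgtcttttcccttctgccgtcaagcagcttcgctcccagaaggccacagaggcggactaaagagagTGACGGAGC
With TTCNNNGAA in capitals,
Psmb8 (chr17:34198045-34198194, plus strand): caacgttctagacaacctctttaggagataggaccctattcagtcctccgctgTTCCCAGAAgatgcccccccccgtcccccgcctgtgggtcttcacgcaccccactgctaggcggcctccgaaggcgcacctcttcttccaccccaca

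Library totals ranged from 8887861 counts (control 3) to 32722293 (control 1), and mitochondrial genes took 7.95% to 11.7% of counts. Epithelial markers held between 85620 and 131100 summed normalised counts per library, with 0 of 8 called at 18 h, whereas 10 haematopoietic markers summed to 319 to 583 in control, 356 to 679 in 18h-αGal and 690 to 841 in 72h-αGal. The 72h-αGal sums of the haematopoietic markers thus lay above those of both other groups without overlap. Most of these sums was Cd68, with means of 365 in control, 436 in 18h-αGal and 612 in 72h-αGal. In control, the haematopoietic markers Adgre1 and Cd3e were at 0 in each mouse, while Ptprc, Cd79a and Csf1r were counted in each. The spread between mice of a group was larger than counting error throughout (chi-square from 13.1 to 42 per degree of freedom). A normalised count is the raw count divided by 1 size factor per library, as deposited. It is comparable between mice but not between genes, for which values per kilobase of the canonical transcript are used.

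In unstimulated crypt IECs the levels of the subunits were far from uniform. Per kilobase, the control mean was highest for Psmb3 (1592 ± 164 normalised counts, SD, n = 3), followed by Psma1 (1319 ± 129), Psmd8 (1185 ± 139), Psma7 (1166 ± 171) and Psmb4 (1155 ± 137). The last 4 overlapped within their SDs, and so did Psmb3 and Psma1. The lowest subunits of the complete particle were Psmb5 (78.8 ± 1.85) and Psmb1 (156 ± 10.1), while the 19S assembly chaperones Psmd10 (93.1 ± 18.0), Psmd9 (120 ± 17.2) and Psmd5 (138 ± 12.5) were low as well. The place of Psmb1 rests on the length of its canonical transcript, 6.002 kilobases. Its 935 ± 60.5 normalised counts were near the 907 ± 159 of Psmb6, which at 1.036 kilobases came to 876 per kilobase. Whether these cells make the canonical transcripts was not tested. The subunits are present in equal numbers in the assembled core, so these levels describe transcripts as counted, not particles. Part of this order touches mapping: 60.4% of the 50-base words of Psmb3, 55.1% of those of Psma5 and 48.7% of those of Psmb5 also occur in other genes, the pseudogene Psma5-ps among them, so that reads of these genes may have been split or dropped. For Psma1, Psma6, Psma7, Psmc4, Psmd3, Psmd6, Psmd7, Psmd8 and Psme3 this share was 0.

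At 18 h after αGalCer the proteasome genes were higher as a body. Compared with control, 26 of 37 were called higher and 0 lower (edgeR quasi-likelihood test, Benjamini-Hochberg adjusted p under 0.05 over all 18933 genes), where 3.27% of all tested genes were called higher and 2.69% lower (5.96% in either direction). The log2 fold change was above 0 for 37 of 37, against 47.6% of all genes, and its median was 0.68 (1.60-fold), against -0.03 for all genes. The 3 mice of each group did not overlap for 34 of the 37, with 18h-αGal higher, against 11.5% of all genes; the exceptions were Psmd5, Psmd10 and Psme3. Together the genes took 0.215%, 0.217% and 0.201% of the counts of the control libraries, 0.321%, 0.347% and 0.300% in 18h-αGal, and 0.223%, 0.205% and 0.209% in 72h-αGal. The median log2 ratio of the genes to their control mean was 0.65, 0.74 and 0.66 in the 3 18h-αGal mice, where control mice lay between -0.06 and 0.08 and 72h-αGal mice between -0.12 and 0.04. The change was therefore of similar size in each of the 3 mice, far beyond the pooled SD between mice of 0.069. The number called was 17 without control 1 and 16 without 18h-αGal 2, while the median log2 fold change was 0.67 and 0.66 without these libraries.

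**Figure D1:**
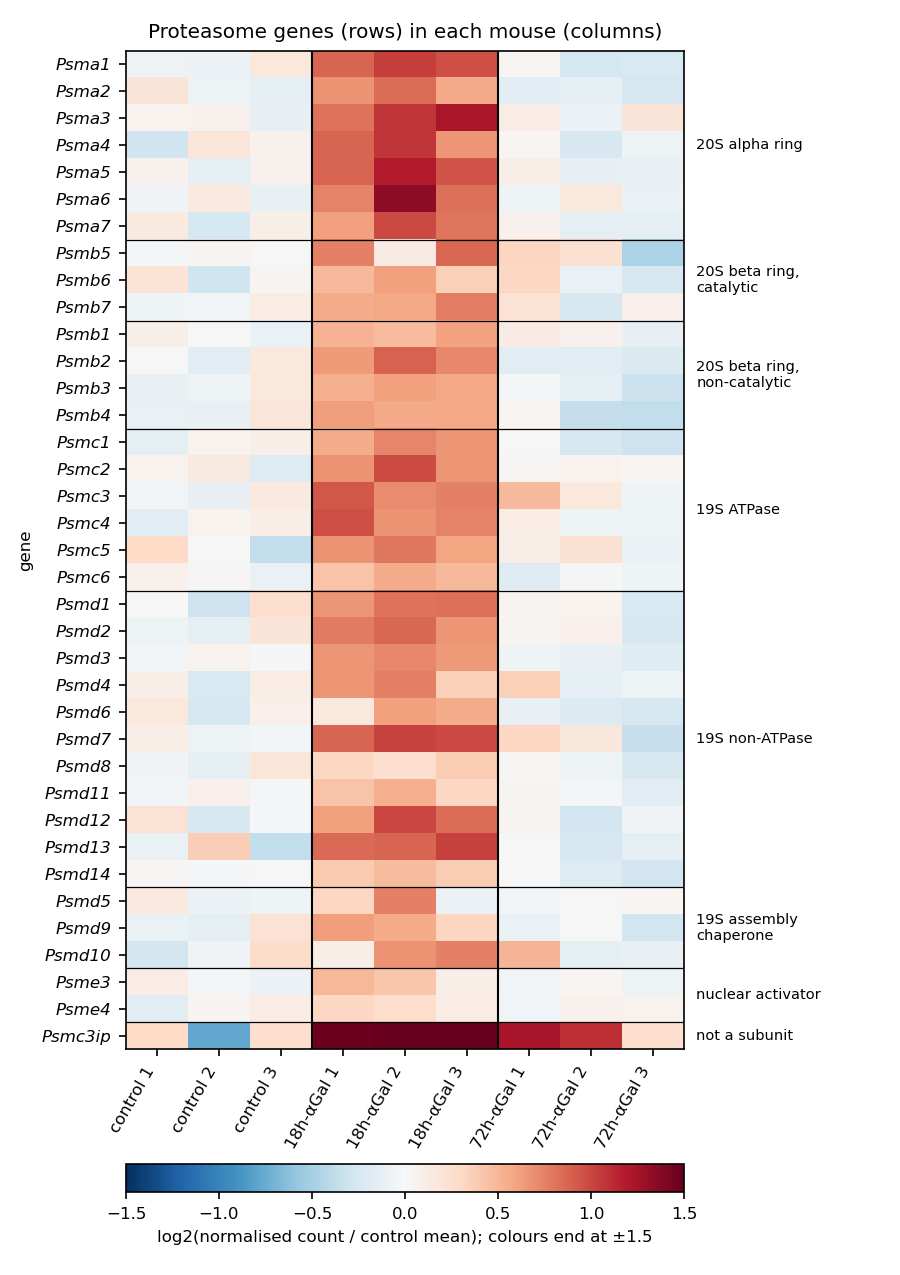
Each row is 1 of the 37 tested genes, ordered by role, and each column 1 mouse; colour gives the log2 ratio of the normalised count to the control mean, on a scale that ends at ±1.5. The 3 18h-αGal columns are red in nearly every row, with per-mouse medians of 0.65, 0.74 and 0.66, while the 72h-αGal columns look like control.

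The α ring of the core had the highest summed ratio of the groups of subunits. All 7 Psma genes were called higher, with log2 fold changes from 0.70 (Psma2) to 1.05 (Psma3) and a median of 0.97, and their summed normalised counts went from 6937, 6547 and 6880 in control to 11689, 14049 and 12748 in 18h-αGal, a ratio of 1.89. Psma3 had 1313, 1316 and 1158 normalised counts in control, 2211, 2649 and 2939 in 18h-αGal, and 1364, 1191 and 1439 in 72h-αGal. All 3 18h-αGal mice lay well above the other 6. Its log2 fold change was 1.05 ± 0.13 (SE, edgeR adjusted p = 0.000447). Psma1 stood at 1716, 1694 and 2011 in control and at 3303, 3720 and 3521 at 18 h, which is 0.97 ± 0.12 on the log2 scale (edgeR adjusted p = 0.000328), the smallest p of the 37. At 72 h it was back at 1850, 1505 and 1545. Psma5 gave 718, 627 and 718 in control against 1258, 1562 and 1325 at 18 h (1.01 ± 0.14, edgeR adjusted p = 0.00106). Psma6 gave 458, 528 and 440 against 799, 1206 and 840 (1.0015 ± 0.18, edgeR adjusted p = 0.00546), and here the second 18h-αGal mouse stood above the other two. Psma4 went from 351, 491 and 452 to 792, 904 and 684 (0.89, edgeR adjusted p = 0.0106). It was the only gene of the ring whose call was lost when a library was left out (control 1 or 18h-αGal 2, adjusted p up to 0.0674). Psma7 rose by 0.82 and Psma2 by 0.70.

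The β ring rose too, with smaller folds. All 4 non-catalytic subunits were called higher: Psmb2 by 0.76 on the log2 scale, Psmb4 by 0.60, Psmb3 by 0.59 and Psmb1 by 0.54, and their summed counts were 1.55 times the control mean. Single libraries decided some of these calls: without control 1 or 18h-αGal 2 those of Psmb1, Psmb3 and Psmb4 were lost, that of Psmb4 also without control 2 or 18h-αGal 1, and that of Psmb1 also without control 2, 18h-αGal 1 or 18h-αGal 3 (edgeR adjusted p up to 0.0674 for Psmb1, 0.0740 for Psmb3 and 0.0857 for Psmb4). Of the 3 catalytic subunits only Psmb7 passed the test. Psmb7, the trypsin-like site, had 551, 558 and 621 normalised counts in control and 849, 862 and 980 in 18h-αGal (log2 fold change 0.65 ± 0.16, edgeR adjusted p = 0.0255). This call did not hold when any 1 of control 1, control 2 or the 3 18h-αGal mice was left out (adjusted p up to 0.106), and 28.1% of its 50-base words lie in Nek6, which overlaps it on the opposite strand. Psmb6, the caspase-like site, gave 1050, 736 and 937 in control and 1274, 1390 and 1162 at 18 h. The groups did not overlap, but the control mice were spread, and the log2 fold change of 0.50 ± 0.17 was not called (edgeR adjusted p = 0.101). Psmb5, the chymotrypsin-like site and the lowest subunit, had 132, 138 and 133 in control and 226, 146 and 244 at 18 h (0.62 ± 0.30, edgeR adjusted p = 0.258). Its second 18h-αGal mouse lay just above control, and the 95% interval ran from -0.02 to 1.26, so that an unchanged level and a doubling both lay within it. The summed catalytic counts were 1732, 1431 and 1690 in control against 2349, 2397 and 2386 at 18 h, a ratio of 1.47.

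In the 19S cap, all 6 ATPases were called higher, by 0.50 (Psmc6) to 0.81 (Psmc4 and Psmc3) on the log2 scale, and their summed counts were 1.61 times control, with 5522, 5549 and 5254 in the control mice and 8709, 9058 and 8477 in the 18h-αGal mice. Psmc2, at 0.78, and Psmc1, at 0.66, rose in between, and Psmc5 at 0.69. The calls of Psmc5 and Psmc6 were lost without control 2, 18h-αGal 1 or 18h-αGal 2, and that of Psmc6 also without control 1 (edgeR adjusted p up to 0.106 and 0.114). The non-ATPase subunits divided. 7 of 11 were called higher: Psmd7 by 0.97, Psmd13 by 0.92, Psmd12 by 0.83, Psmd2 and Psmd1, the large scaffolds of the base, by 0.78 each, Psmd3 by 0.68 and Psmd11 by 0.44. Psmd13, a lid subunit, had 503, 694 and 416 normalised counts in control, 967, 986 and 1096 in 18h-αGal and 538, 457 and 489 in 72h-αGal (0.92 ± 0.18 at 18 h, edgeR adjusted p = 0.00917). Its call was lost without control 1 (edgeR adjusted p = 0.0542), and 44.1% of its 50-base words occur in other genes, Cox8b on the opposite strand among them. Over the whole set, 9 of the 13 tested genes with the ETS-type motif in their promoter were called higher, Psmd2, Psmd12 and Psmc1 (printed above) among them, and so were 11 of the 18 with a promoter entry that lacks it. Of the genes with the antioxidant core 2 of 6 were called, and of those without it 18 of 25. These counts are a description and carry no test. Psmd12 lost its call without 18h-αGal 2 (edgeR adjusted p = 0.0504), and Psmd11 lost it without control 1 or 2, 18h-αGal 1 or 2, or 72h-αGal 1 or 2 (up to 0.152). The 4 cap subunits that were not called were Psmd4, Psmd6, Psmd8 and Psmd14, although none of them overlapped with control. Psmd4, a ubiquitin receptor, gave 584, 465 and 587 in control and 861, 924 and 697 at 18 h (0.61 ± 0.18, edgeR adjusted p = 0.0609), and this passed the threshold in DESeq2 and in limma-voom. Psmd14, the enzyme that removes ubiquitin chains from the substrate, gave 470, 459 and 466 in control against 609, 644 and 604 (0.42 ± 0.16, edgeR adjusted p = 0.139). Control mice of Psmd14 differed by little, and the 3 18h-αGal mice were all higher. Psmd8 had a log2 fold change of 0.32 and Psmd6 one of 0.47.

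The genes around the particle moved less or less evenly. None of the 3 chaperones that assemble the ATPase ring was called: Psmd10 had a log2 fold change of 0.55, Psmd9 of 0.53 and Psmd5 of 0.38, with adjusted p of 0.314, 0.132 and 0.286 in edgeR. Psme3, the nuclear activator PA28γ, was among the most counted of all, with 3818, 3454 and 3319 in control, 4988, 4713 and 3778 in 18h-αGal and 3431, 3617 and 3336 in 72h-αGal. The third 18h-αGal mouse lay within the control range, and the log2 fold change of 0.36 ± 0.12 was not called (edgeR adjusted p = 0.101). Without that mouse it was (edgeR adjusted p = 0.0242). Psme4, the activator PA200, gave 3202, 3681 and 3863 in control and 4454, 4305 and 3873 at 18 h, and its log2 fold change of 0.24 ± 0.11 was the smallest of the 37 (edgeR adjusted p = 0.221). The summed counts of both activators were 1.22 times control, where the α ring was at 1.89. This difference between the groups of genes was not tested. Psmc3ip, which is no subunit, had the largest fold with few counts, 44.0, 20.9 and 42.8 in control and 99.6, 102 and 121 at 18 h (1.59 ± 0.43, edgeR adjusted p = 0.0430). It lost its call when any 1 of control 1, control 2, the 3 18h-αGal mice or 72h-αGal 1 or 2 was left out (adjusted p up to 0.137), and 27.5% of its 50-base words lie in Mlx on the opposite strand. Psmb11, which was not tested, had 27.0, 56.0 and 0 in control, 3.78, 1.80 and 0 at 18 h, and 4.63, 8.07 and 0 at 72 h.

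**Figure D2:**
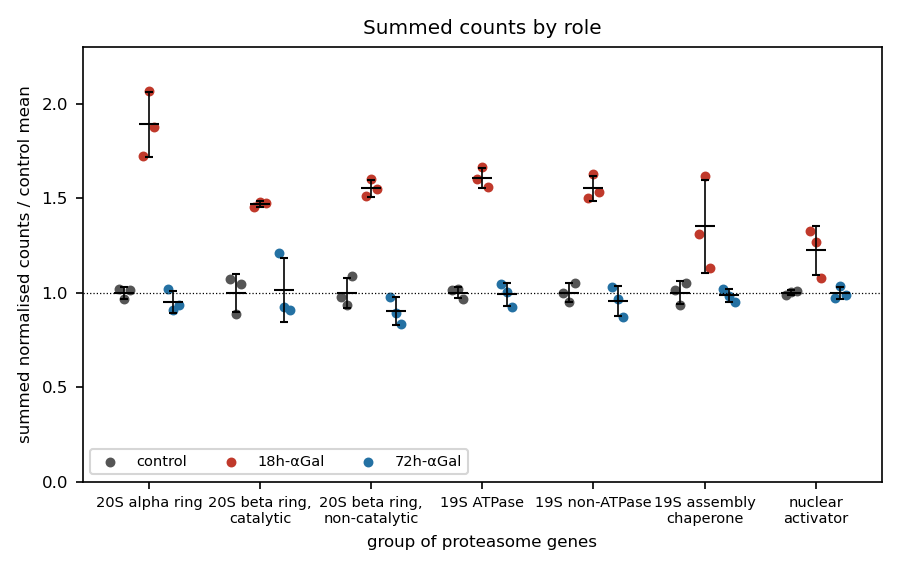
Points give, for each mouse, the summed normalised counts of the genes of a role divided by the control mean; bars show mean and SD of 3 mice. The 18h-αGal sums lie above both other groups in each role, with mean ratios from 1.22 (nuclear activators) to 1.89 (α ring).

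**Figure D3:**
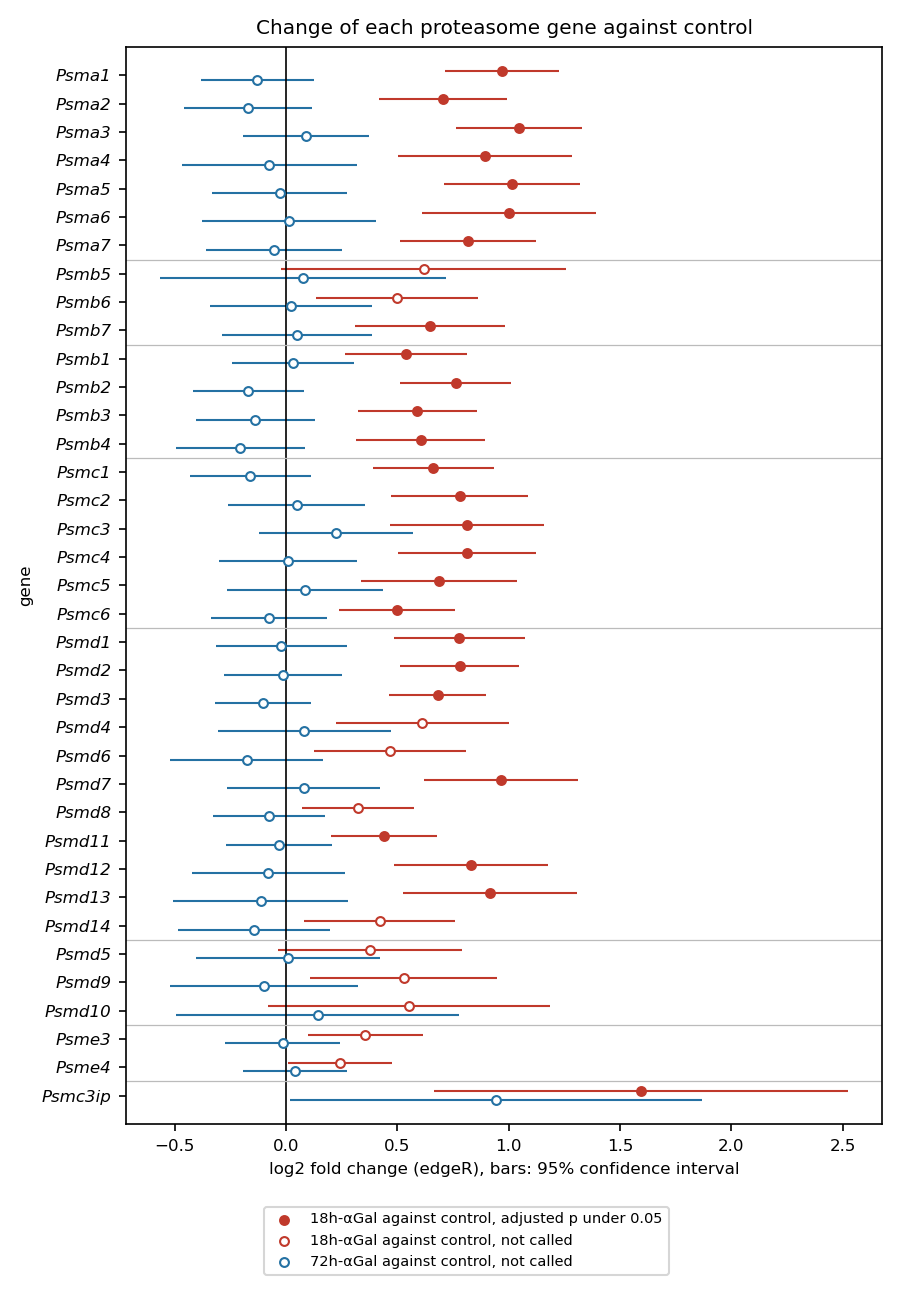
Log2 fold change of each tested gene against control with its 95% confidence interval, at 18 h (red) and 72 h (blue); filled points were called by edgeR. At 18 h 26 of 37 points are filled and all lie above 0, whereas at 72 h none is filled and 16 lie above 0.

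Set against all genes, the shift was broad but of moderate size. Of all tested genes, 9.77% had a log2 fold change above the median of the 37 at 18 h, and 29.1% had one above the lowest of them. Many single genes thus changed by more. What the proteasome genes shared was direction, with a range from 0.24 (Psme4) to 1.59 (Psmc3ip) and without Psmc3ip to 1.05.

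**Figure D4:**
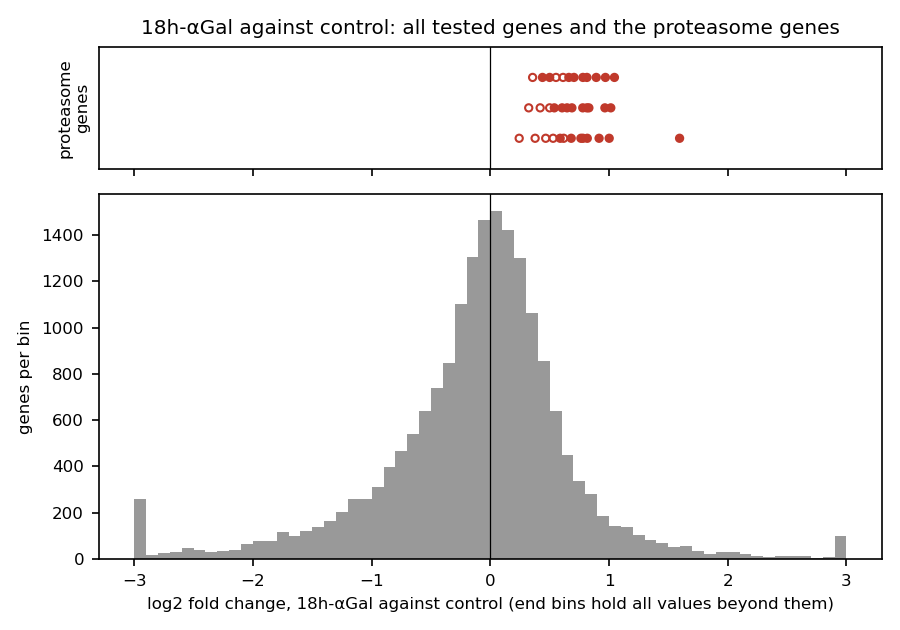
The histogram shows the log2 fold changes of all 18933 tested genes at 18 h against control in bins of 0.1, and the points above it the 37 proteasome genes (filled where called, spread vertically for visibility). All points lie to the right of 0, where the histogram holds 47.6% of the genes.

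At 72 h after αGalCer no proteasome gene differed from control past the threshold. In this comparison 0 of 37 were called by edgeR, where 0.0264% of all genes (5 of 18933) were, and 0 by DESeq2 and limma-voom. At an unadjusted p under 0.05, which 5.94% of all genes reached, there was 1 (Psmc3ip, 0.94, unadjusted p = 0.0459) in edgeR and in DESeq2, and 0 in limma-voom. The median log2 fold change was -0.02, 16 of 37 were above 0 (50.3% of all genes), and without Psmc3ip the values ran from -0.20 (Psmb4) to 0.22 (Psmc3). For 1 gene, Psmd3, all 72h-αGal mice lay below control (2107, 2047 and 1947 against 2146, 2297 and 2175), and 6.30% of all genes showed this. Its log2 fold change was -0.10, not called. A missed threshold does not show equality, but the intervals were narrow for the well counted genes: that of Psma1 ran from -0.38 to 0.12, and that of Psma3 from -0.19 to 0.37, both below the change seen at 18 h.

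Compared directly, 72h-αGal was lower than 18h-αGal for 28 of 37 genes by edgeR, where 6.04% of all genes were called lower, and higher for 0 (4.18% of all genes, and 10.2% called in either direction). The log2 fold change was below 0 for 37 of 37, where 53.4% of all genes were above 0, and it had a median of -0.73, and for 33 of 37 the mice did not overlap (16.3% of all genes). This comparison shares its 18h-αGal mice with the one against control, so its counts are not a second measurement of the rise. The largest falls were those of Psma1 (-1.10), Psma5 (-1.04), Psmd13 (-1.03), Psma6 (-0.99) and Psma4 (-0.97). The 9 genes that were not called were Psmb5, Psmb6, Psmd4, Psmd5, Psmd9, Psmd10, Psme3, Psme4 and Psmc3ip. Psmd6, Psmd8 and Psmd14 were called lower here although their rise was not called at 18 h, with log2 fold changes of -0.64, -0.40 and -0.56, and each of these calls was lost when single 18h-αGal or 72h-αGal libraries, and for Psmd8 and Psmd14 also control 1, were left out (edgeR adjusted p up to 0.0938, 0.201 and 0.157). The same held for Psmb1, Psmb7, Psmc3, Psmc5 and Psmd11 (up to 0.118, 0.132, 0.160, 0.146 and 0.0864) and, without 72h-αGal 1 alone, for Psmc6 (0.0505). Psmb7 at 72 h was at 671, 488 and 609 normalised counts and Psmb5 at 168, 157 and 96.4, with the third mouse below all controls.

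The interferon-inducible counterparts rose by more. Psmb8 had 122, 130 and 383 normalised counts in control, 728, 858 and 831 in 18h-αGal and 366, 268 and 261 in 72h-αGal, and Psmb9 had 399, 416 and 834, then 1917, 2208 and 2299, then 745, 560 and 550. Control 3 stood above the other controls for both, and also for Psmb10, Psme1 and Psme2. All 5 genes were called higher at 18 h, Psmb8 by 2.00 ± 0.37 and Psmb9 by 1.99 ± 0.25 on the log2 scale, but Psmb10 by 0.80, Psme2 by 0.84 and Psme1 by 0.76, which lies within the range of the constitutive subunits. The call of Psmb10 at 18 h was lost without control 1 or 2 or 18h-αGal 2 or 3 (edgeR adjusted p up to 0.102). All 5 were called lower at 72 h than at 18 h (edgeR). Because each inducible subunit takes the place of 1 constitutive subunit, its share of their summed transcripts per kilobase was computed in each mouse. For Psmb8 with Psmb5 this share was 48.1%, 48.6% and 74.2% in control, 76.3%, 85.5% and 77.3% in 18h-αGal, and 68.5%, 63.0% and 73.0% in 72h-αGal. The 18h-αGal mice lay above all controls, by a narrow margin over control 3. For Psmb9 with Psmb6 it was 22.5%, 30.2% and 40.6%, then 53.5%, 54.9% and 60.2%, then 33.7%, 33.5% and 35.4%, so that 18h-αGal mice stood apart from the rest. For Psmb10 with Psmb7 the groups overlapped, with means of 71.1% ± 3.38, 73.6% ± 0.741 and 65.8% ± 6.59 (SD, n = 3). The shares are given as values per mouse and were not tested; an exact two-sided permutation test of 3 mice against 3 cannot go below p = 0.10. Reads of Psmb9 and Tap1 share 35.7% of the 50-base words of Psmb9, since these genes overlap on opposite strands. Of the words of Psme2 65% occur in other genes (59.2% in Psme2b). For Psme1 this was 53.8% (49.1% in Emc9 on the opposite strand), so the changes of both carry the same limit.

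**Figure D5:**
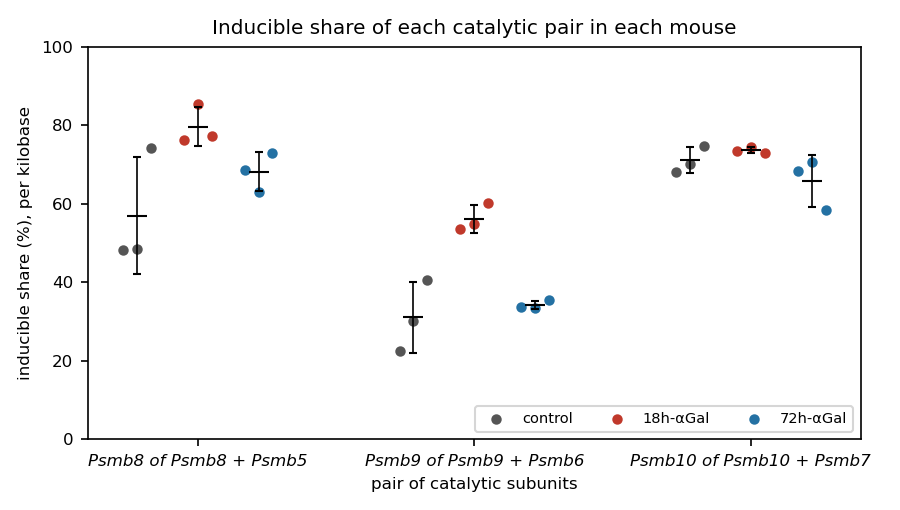
Share of each inducible catalytic subunit in the sum of itself and its constitutive counterpart, per kilobase of transcript, in each mouse, with mean and SD of 3 mice. The Psmb9 share lies between 53.5% and 60.2% at 18 h and at or below 40.6% in the other 6 mice, while the Psmb10 share runs from 58.3% to 74.8% over all 9 mice.

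Other parts of the ubiquitin-proteasome system also held calls at 18 h, where 3.27% of all tested genes were called higher. Among 5 factors that assemble the core, Pomp, which closes the β ring, was called higher at 18 h (0.66, edgeR adjusted p = 0.0259; lost when any 1 of control 1, control 2 or the 3 18h-αGal mice was left out, up to 0.127), and the others ranged from 0.07 (Psmg3) to 0.97 (Psmg4) without a call. Of 10 proteins that bind the particle, 3 were called: the deubiquitinase Uchl5 by 1.01, the ubiquitin receptor Adrm1, which holds it, by 0.57, and Txnl1 by 0.52, while the inhibitor Psmf1 stood at 0.23. Of 14 genes for ubiquitin, its activating enzymes, shuttles and the p97 unfoldase, Vcp (0.49), its cofactor Nploc4 (0.46) and the shuttle Rad23b (0.42) were called. Of these 6 calls, that of Vcp held in each of the 17 other fits, while the other 5 were lost without 18h-αGal 2, and those of all but Uchl5 also without other single libraries (edgeR adjusted p up to 0.0625 for Uchl5, 0.0732 for Adrm1, 0.0984 for Txnl1, 0.129 for Nploc4 and 0.216 for Rad23b). Ubb, which encodes polyubiquitin, stood at -0.01 and was not called. None of 5 regulators was called, with Nfe2l1 at 0.15, Nfe2l2 at 0.19, Ngly1, which activates the Nfe2l1 product, at -0.21, its protease Ddi2 at -0.13 and the import factor Akirin2 at 0.16. Transcript levels do not report the processing of the Nfe2l1 protein. Summed normalised counts of the 5 assembly factors did not overlap, at 1695 to 1832 in control and 2555 to 2696 in 18h-αGal (median log2 fold change 0.61). Those of the 14 genes did not either, at 34130 to 37180 and 41610 to 43150 (median 0.19). The sums of the 10 bound proteins (17950 to 18910 and 18760 to 19270) and of the 5 regulators (15070 to 19160 and 15830 to 21450) overlapped.

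Other lists moved in the same mice. At 18 h, 3.27% of all tested genes were called higher and 5.96% in either direction. Of 10 interferon-γ response genes 7 were called higher at 18 h, with summed normalised counts of 15110 to 31310 in control, 56190 to 61560 in 18h-αGal and 16240 to 21880 in 72h-αGal. Of 15 proliferation genes 3 were called higher (Rrm2, Birc5 and Plk1), with a median of 0.40, and the sums overlapped, at 23230 to 35630 in control and 31180 to 44420 in 18h-αGal. Of the enteroendocrine markers 3 of 6 and of the tuft markers 2 of 5 tested were called higher, and 1 of 6 goblet markers. At 72 h against control 5 of the 6 enteroendocrine markers were called lower (median -1.16), where 5 of 18933 genes were called in either direction. Their sums were 6797 to 8946 in control, 9822 to 15440 in 18h-αGal and 2953 to 4142 in 72h-αGal. The 6 stem cell markers had a median of -1.23 with 0 called, and their sums did not overlap between control (42510 to 82380) and 18h-αGal (11720 to 39660), with 54740 to 86240 in 72h-αGal. The 5 Paneth markers had a median of 1.15 with 0 called, and of the enterocyte markers 0 of 8 were called. Of the markers of cells outside the epithelium 0 were called, but many were not tested. Those tested were 6 of 10 haematopoietic, 1 of 4 endothelial, 1 of 4 erythroid and 2 of 4 stromal markers. The sums of 4 stromal markers were 34.2 to 49.9 in control, 0 to 9.88 in 18h-αGal and 2.02 to 29.0 in 72h-αGal. Those of 4 endothelial markers were 40.5 to 57.1, 20.7 to 37.7 and 22.8 to 26.6. Both sums were lower at 18 h than in control without overlap. Their part in the rise of the proteasome genes was not tested.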

How the data were processed

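RNA sequencing libraries were made from sorted crypt IECs of 9 mice, 3 per group. The authors prepared ribosomal RNA-depleted directional libraries, mapped 100-base reads with HISAT2 and deposited raw counts of reads per gene for every library. The study's methods name the genome GRCm39, whereas the submitters' processing notes list GRCm38 (mm10) and featureCounts from Subread, so the build of the deposited counts is not settled here, and neither is the strand setting of the counting. A second table deposited by the authors holds a normalised signal, called normalised count here, which equalled the raw count divided by a DESeq2 size factor for each library (largest relative difference 8.9e-16).

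Gene symbols came from GENCODE vM39 (28480 of 29288 identifiers matched), as did transcript lengths, exon overlaps and the 50-base words shared between canonical transcripts. The main test was that of edgeR 4.0.16 (R 4.3.3) on raw counts (filterByExpr, 18933 genes kept; TMM factors; 1 robust quasi-likelihood fit of 3 group means over all 9 libraries), with Benjamini-Hochberg adjustment over all tested genes and a threshold of 0.05. The F statistic of each test gave the standard error and the 95% interval. Library totals ranged from 8887861 to 32722293 counts. The common dispersion was 0.123. The procedure was tested on simulated data.

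Members, gene lists and tests were chosen with earlier results of these data known. Every member could be named, and values per mouse are given for Psmb5, Psmb6, Psmb7, Psmd4, Psmd14, Psme3 and Psme4 and, in each comparison, for up to 5 called genes with the largest changes. Other genes came from lists of general knowledge only. Psmd3, Psmb11 and the inducible subunits are given per mouse after their values were seen. Alternatives were DESeq2 1.42.0, limma-voom (limma 3.58.1), other scaling factors, no filter, only the groups compared, a minimum log2 fold change of 0.5, the replicate number as a block, and leaving out each library. A fit without mitochondrial genes was added after the data were seen. The labels name no batch, and separate mice are given only by sample, so the p-values measure the spread between these samples. Columns of other samples numbered 0.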

Additional observations from a re-analysis of the deposited data

Results flagged for a closer look

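Groups of 3 mice were not tested for outlying samples. The change against control differed between both times for 28 of the 37 proteasome genes, by the edgeR test of the direct contrast of 72h-αGal with 18h-αGal, in which the shared control cancels. Of all tested genes, 10.2% were called in either direction by the same test, and 6.04% were called lower. The log2 fold changes of this contrast were, in the α ring, -1.10 (Psma1), -0.87 (Psma2), -0.95 (Psma3), -0.97 (Psma4), -1.04 (Psma5), -0.99 (Psma6) and -0.87 (Psma7). In the β ring they were -0.51 (Psmb1), -0.93 (Psmb2), -0.73 (Psmb3), -0.81 (Psmb4) and -0.60 (Psmb7). The 19S ATPases had -0.82 (Psmc1), -0.73 (Psmc2), -0.59 (Psmc3), -0.81 (Psmc4), -0.60 (Psmc5) and -0.58 (Psmc6). The other 19S subunits had -0.80 (Psmd1), -0.79 (Psmd2), -0.78 (Psmd3), -0.64 (Psmd6), -0.89 (Psmd7), -0.40 (Psmd8), -0.47 (Psmd11), -0.91 (Psmd12), -1.03 (Psmd13) and -0.56 (Psmd14). The interval since αGalCer and any difference between the days on which mice were processed cannot be told apart in this contrast.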

How the results depend on the processing

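The direction of each of the 37 genes was the same in all 17 alternative fits, both for the rise at 18 h and for the contrast between the times. Of the 26 calls at 18 h, 15 held in each of these fits and 11 were lost in at least 1, and of the 28 calls between the times 19 held and 9 were lost. In each comparison 3 further genes were called in some of them. A minimum log2 fold change of 0.5, applied to the reported fit, left 24 calls at 18 h and 26 between the times. The share of all genes that passed this minimum is not given here, so these counts describe the set only. The number called at 18 h ranged from 16 to 26 when single libraries were left out (17 without control 1, 16 without 18h-αGal 2), and from 21 to 28 in the other fits. Between the times it ranged from 20 to 30 without single libraries. It was 0 at 72 h against control in each fit. The median log2 fold change between the times was -0.65 with upper-quartile factors and between -0.79 (without 72h-αGal 1) and -0.65 (without 72h-αGal 3) in the leave-one-out fits. Over all genes the calls at 18 h were 1128 in the edgeR fit reported, 1720 in DESeq2, 593 with only both groups compared, 489 without control 1, 681 without control 2 and 432 without 18h-αGal 2. Between the times they were 1936, against 940 without 18h-αGal 2 and 831, 1108 and 1194 without 72h-αGal 3, 1 and 2. At 72 h against control they were 5 in the fit reported, 31 in DESeq2, 13 with no filter, 1 with the block and 0 to 20 without single libraries. Without transcript length, the inducible share was 62.6% for Psmb9 at 18 h, 40.5% at 72 h, and 75.95% for Psmb10 at 18 h. Nfe2l2, not called, ranged from -5e-04 to 0.32 without single libraries, and Psmg3, not called, from -0.17 (without 18h-αGal 3) to 0.27, with -0.14 without control 2. With the replicate number as a block, 23, 0 and 26 proteasome genes were called in the 3 comparisons (18 h, 72 h, between the times). Of all genes, 4.13%, 0.00528% and 7.24% were called in that fit. The replicate numbers did not pair the mice: correlations of same-numbered mice ran from -0.15 to 0.11. Causes of these changes were not tested. Psmb5, Psmd10 and Psmc3ip, which have few counts, had the widest intervals. The part of depth in this was not tested.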
